A study of Mus musculus with 14 samples.

Results

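Follicular B cells that lack c-Rel were compared with wild type cells at the 0h point of a BAFF culture series, with 2 libraries of each genotype. These 4 of the 14 libraries were chosen by their titles, and the comparison covered the 12630 genes with enough reads. The cells were isolated from the spleen of C57BL/6 mice with a magnetic bead kit for marginal zone and follicular B cells, and were cultured in complete medium with 50 ng per ml of BAFF for later times. The groups used are wild type (wt) at 0h and 6h, cells without c-Rel (cko) at 0h and 6h, and cells without both RelB and c-Rel (dbko) at 0h, each with 2 libraries. The sources used here give no ages, no construction of the knockout alleles and no number of animals behind a library. The labels do not tie replicates to separate animals, and the p-values therefore measure only how far these libraries spread, which may be technical.

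c-Rel, encoded by Rel, is a subunit of NF-kB, a family of dimeric transcription factors that IkB proteins hold in the cytoplasm until signals such as those from the B cell receptor, CD40 or the BAFF receptor release them. RelA, c-Rel and p50 form mainly the canonical dimers, and RelB with p52 the non-canonical ones that BAFF feeds. Follicular B cells are the recirculating mature B cells of spleen and lymph nodes, in which c-Rel is abundant and is best known for its part in survival and proliferation after activation.

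Gene counts summed to 10620035 to 11412736 in the 4 libraries, with 15438 to 15788 genes counted at least once. Replicate 1 of each genotype was sequenced in lane 7 and replicate 2 in lane 8, and each group carried its own adapter index in both lanes, so index and genotype cannot be told apart. Replicates differed by a chi-square per gene of 3.06 in wt and 3.92 in cko at 0h, where counting noise alone gives about 1. The groups with the widest spread, whose libraries also enter the estimate used for every test, were cko at 6h (22) and dbko at 0h (30.9) and at 6h (35.5). Levels are given as CPM, the count relative to the scaled library size, in the order replicate 1 and replicate 2, and are not divided by gene length. Differences are log2 of cko over wt ± SE from the edgeR quasi-likelihood model, and called genes have an adjusted p under 0.05.

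Without c-Rel, B cells before culture kept the RNA profile of B cells, and the number of genes called depended on the libraries in the fit. Unless another fit is named, calls are from the fit to all libraries, which called 116 genes higher and 73 lower. With the compared groups alone, 1425 were called higher and 1235 lower. Chaperone genes of the heat shock response were higher, among them the abundant Hsph1. Some macrophage genes and the immediate early genes Jun and Dusp1 were lower, some red cell genes were higher, and genes of the Ifi200 cluster changed in both directions. Of the 12630 genes tested 189 were called, 1.50%. These comprised 116 higher in cko, 0.918%, and 73 lower, 0.578%. At least a 2-fold change was seen for 93 of them, 0.736%, with 45 higher (0.356%) and 48 lower (0.380%). In all 189 the genotypes did not overlap, which makes the direction the same within lane 7 and within lane 8. The 189 were chosen from these same 4 libraries, so this is no separate support for them. Among all tested genes both cko libraries lay above both wt libraries in 26.6% and below them in 32.2%, and the median difference was -0.02.

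The count of calls moved with the libraries behind the estimate of spread. Fitted without the 4 dbko libraries, an alternative added after seeing the data, the comparison gave 1321 called genes, 10.9% of those tested, with 691 higher (5.68%) and 630 lower (5.18%). All of the 189 were among them with the same direction. With any 1 of the 4 compared libraries left out, 31 of the 189 genes stayed called each time, 0.245% of all genes tested, 15 of them higher and 16 lower. Left out one at a time, cko replicate 1, cko replicate 2, wt replicate 1 and wt replicate 2 left 30, 23, 16 and 21 genes higher and 18, 18, 22 and 25 lower. A call that stood in each of these 4 fits is said to have held, and for other genes the range of adjusted p over the 4 fits is given.

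**Figure D1:**
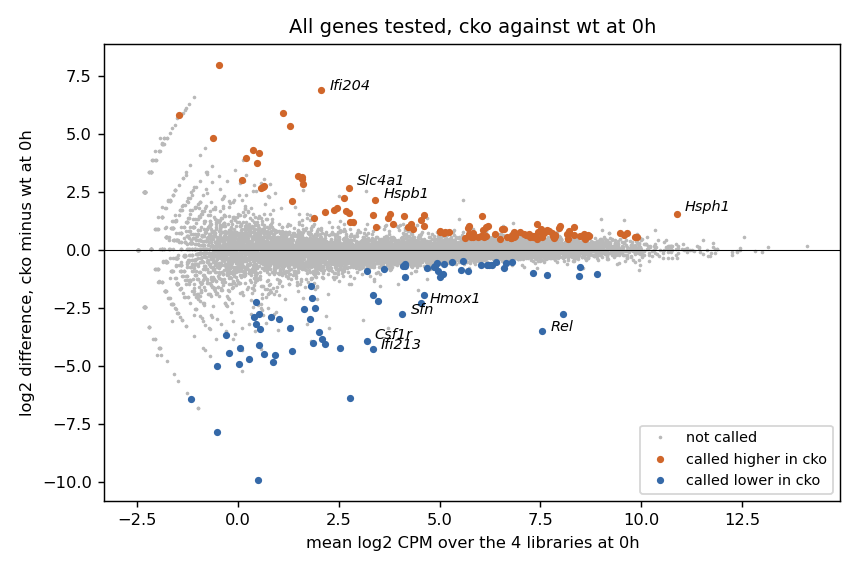
Log2 difference between cko and wt at 0h (vertical axis) against the mean log2 CPM over the 4 libraries (horizontal axis) for each of 12630 genes tested, with the 116 called higher in orange, the 73 called lower in blue and the others in grey. Rel and Hsph1 stand out among genes of high level, and most other large differences belong to genes of low level.

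Rel, the targeted gene (ENSMUSG00000020275, GRCm38 chr11:23736847-23770970, minus strand), was measured at 633 and 621 CPM in wt and at 58.3 and 52.4 CPM in cko. The difference was -3.50 ± 0.15 (adjusted p = 4.03e-08), it held, and reads remained in both cko libraries. The level of Rel went with the labels in all 4 libraries.

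The other 4 subunit genes did not fall, and the pair encoding the non-canonical dimer had higher values. Relb, encoding the partner of p52, stood at 115 and 117 CPM in wt and 195 and 168 CPM in cko, a rise of 0.64 ± 0.14 (adjusted p = 0.0385). It was not called in any fit with 1 library left out, at adjusted p = 0.332 without cko replicate 1, 0.142 without cko replicate 2, 0.337 without wt replicate 1 and 0.294 without wt replicate 2. Nfkb2, encoding p100, the precursor of p52, read 326 and 345 CPM in wt and 526 and 471 CPM in cko, a difference of 0.57 ± 0.16 that was not called (adjusted p = 0.109). Without the dbko libraries the adjusted p was 0.000293 for Relb and 0.000651 for Nfkb2. Rela read 183 and 199 CPM in wt and 252 and 228 CPM in cko (0.33 ± 0.17, adjusted p = 0.454). Both cko libraries lay above both wt libraries, as they did in 26.6% of all genes. Nfkb1, encoding p105 and p50, read 409 and 421 CPM against 425 and 423 CPM (0.03 ± 0.15, adjusted p = 0.966).

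**Figure D2:**
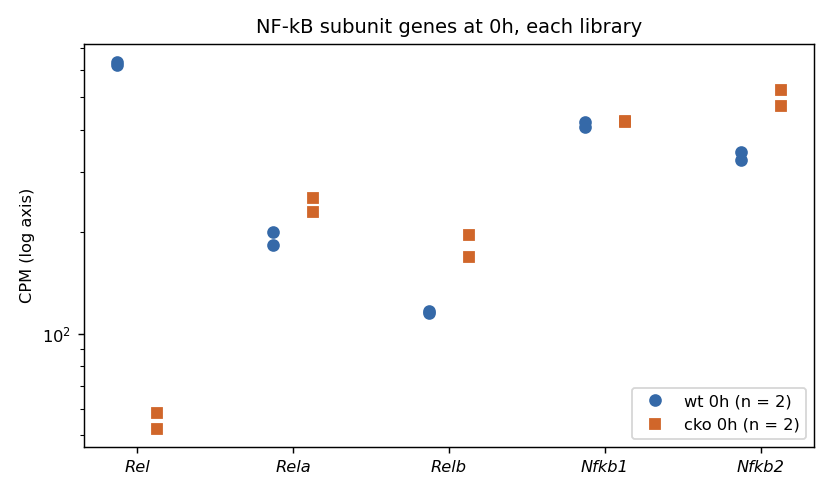
Level in CPM (vertical log axis) of the 5 NF-kB subunit genes at 0h, with 1 point for each of the 2 wt and 2 cko libraries. Rel is lower in both cko libraries by over 10-fold, Relb and Nfkb2 lie above wt in both, and Nfkb1 lies at about the wt level.

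Among the genes that restrain NF-kB, 1 of 13 was called, against 1.50% of all genes. Nfkbie, encoding IkB-epsilon, an inhibitor that binds c-Rel and RelA dimers, stood at 299 and 300 CPM in wt and 496 and 475 CPM in cko. It rose by 0.70 ± 0.14 (adjusted p = 0.0234, and 0.162 to 0.247 with 1 library left out). Nfkbia, encoding IkB-alpha, read 524 and 534 CPM in wt and 533 and 550 CPM in cko, a difference of 0.03 ± 0.20. Tnfaip3, which encodes the ubiquitin-editing inhibitor A20, differed by 0.17 ± 0.27. The median of the 13 was 0.06.

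Of 24 signalling components of the pathway 1 was called, against 1.50% of all genes. Traf6, a ubiquitin ligase downstream of CD40 and Toll-like receptors, stood at 139 and 129 CPM in wt and 202 and 205 CPM in cko, a rise of 0.60 ± 0.10 (adjusted p = 0.00816, and 0.0749 to 0.158 with 1 library left out). Map3k14, encoding NIK, the kinase of the non-canonical pathway, read 109 and 103 CPM in wt against 73.5 and 70.7 CPM in cko, with a difference of -0.55 ± 0.17 that was not called (adjusted p = 0.143). Birc3, encoding cIAP2, a ubiquitin ligase that limits NIK, read 443 and 448 CPM against 655 and 633 CPM (0.53 ± 0.13, adjusted p = 0.0709). For both genes the wt and cko libraries did not overlap. Of all genes, both cko libraries lay above both wt libraries in 26.6% and below them in 32.2%.

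The receptors through which BAFF acts had lower values in cko without being called. Of 15 tested members of the TNF receptor family list 0 were called, against 1.50% of all genes. Tnfrsf13c, the BAFF receptor, read 211 and 218 CPM in wt and 149 and 157 CPM in cko (-0.49 ± 0.12, adjusted p = 0.0574). Tnfrsf13b, encoding TACI, read 232 and 227 CPM against 172 and 174 CPM (-0.41 ± 0.13, adjusted p = 0.172). In both genes each cko library lay below each wt library, as in 32.2% of all genes. Cd40, a receptor for help from T cells, read 142 and 135 CPM against 132 and 128 CPM (-0.09 ± 0.19).

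Of 42 genes known as NF-kB targets, 0 were called higher and 1 lower, against 0.918% and 0.578% of all genes. The median was -0.11, against -0.02 for all genes, and the range -2.38 to 1.18. Both cko libraries lay below both wt libraries in 20 and above them in 12, against 32.2% and 26.6% of all genes. In the fit without the dbko libraries 3 were called higher and 6 lower, against 5.68% and 5.18% of all genes. The called member was Il4i1, an amino acid oxidase gene, at 128 and 127 CPM in wt and 76.7 and 69.3 CPM in cko. It fell by 0.80 ± 0.17 on the log2 scale (adjusted p = 0.0348, and 0.181 to 0.342 with 1 library left out). Irf4, a regulator of B cell activation, read 2621 and 2568 CPM against 2501 and 2568 CPM, and Myc 688 and 715 CPM against 778 and 783 CPM. Cd83, an activation marker, differed by 0.04 ± 0.19, and Icam1, an adhesion molecule, by -0.00 ± 0.14.

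Survival genes gave 1 call, where 1.50% of all genes were called. Bcl2l11, encoding the BH3-only protein Bim, which drives the death of B cells deprived of survival signals, stood at 187 and 171 CPM in wt and 363 and 362 CPM in cko. It rose by 1.02 ± 0.20 (adjusted p = 0.0242, and 0.158 to 0.273 with 1 library left out), the 1 call among 19 pro-apoptotic genes. The list's median was -0.10, and Bid, Pmaip1 and Bak1 had values of -0.52, -0.50 and -0.48, none called. Of 13 pro-survival genes 0 were called, with a median of -0.25. Bcl2l1, encoding Bcl-xL, read 10.5 and 9.68 CPM in wt and 8.15 and 8.25 CPM in cko (-0.30 ± 0.19, adjusted p = 0.543), and Mcl1 differed by 0.01 ± 0.12.

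Heat shock genes made up the list with the most called members. Its members are chaperones of the HSP70, HSP90, HSP60 and small HSP families with their cofactors, which fold proteins under stress and which the factor HSF1 switches on. Of 26 members, all tested, 14 were called higher and 0 lower, against 0.918% and 0.578% of all genes. The median difference was 0.69 and the range ran from -0.10 to 2.15. Both cko libraries lay above both wt libraries in 24 of the 26 and below them in the other two, Hsf1 and Hspbp1. Summed over the list, the level was 11366 and 11592 CPM in wt and 19337 and 19561 CPM in cko.

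Hsph1, encoding HSP110, which helps HSP70 to exchange nucleotides, stood at 1054 and 1149 CPM in wt and 3257 and 3232 CPM in cko. The rise was 1.56 ± 0.16 (adjusted p = 0.000224), and it held. Hspd1, the mitochondrial chaperone HSP60, read 226 and 233 CPM in wt and 439 and 469 CPM in cko, a rise of 0.98 ± 0.13 (adjusted p = 0.00149) that held as well. The third to hold was Dnaja1, an HSP40 cofactor, at 218 and 225 CPM against 372 and 405 CPM (0.81 ± 0.10, adjusted p = 0.000899). In all 3 genes the lower cko library lay above the higher wt library by more than the replicates of either group differed. The 3 were picked because their calls held in these same libraries, so this gap is no separate support.

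Some members of low level had the largest rises. Hspb1, the small heat shock protein HSP27, read 4.59 and 5.32 CPM in wt and 24 and 20 CPM in cko (2.15 ± 0.39, adjusted p = 0.0165, and 0.128 to 0.245 with 1 library left out). Bag3, a cofactor of HSP70 in clearing damaged proteins, rose by 1.56 ± 0.26 (adjusted p = 0.00992, and 0.0976 to 0.192 with 1 library left out), and Dnaja4 rose by 1.68 ± 0.31 (adjusted p = 0.0172). The other called members were Hspa4l (0.79), Ahsa1 (0.74), Dnajb1 (0.74), Stip1 (0.72), Hsp90aa1 (0.71), Chordc1 (0.67), Hspa8 (0.55) and St13 (0.54). Their rises were smaller than those of Hsph1 and Hspd1, and beside Hsph1, Hspd1 and Dnaja1 no called member held.

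The inducible HSP70 genes Hspa1a and Hspa1b had large values without being called. Hspa1a read 308 and 338 CPM in wt and 783 and 855 CPM in cko (1.34 ± 0.61, adjusted p = 0.389), and Hspa1b 471 and 506 CPM against 1047 and 1314 CPM (1.27 ± 0.50, adjusted p = 0.298). Both cko libraries lay above both wt libraries, as in 26.6% of all genes. Since the copies are near-identical, how reads were divided between them is uncertain. Without the dbko libraries 22 of the 26 list members were called higher, these copies included, against 5.68% of all genes. Without the dbko and cko 6h libraries 23 were called higher, in a fit that called 1390 of all genes higher. Hsf1 itself read 67.9 and 68.8 CPM against 66.8 and 60.8 CPM.

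**Figure D3:**
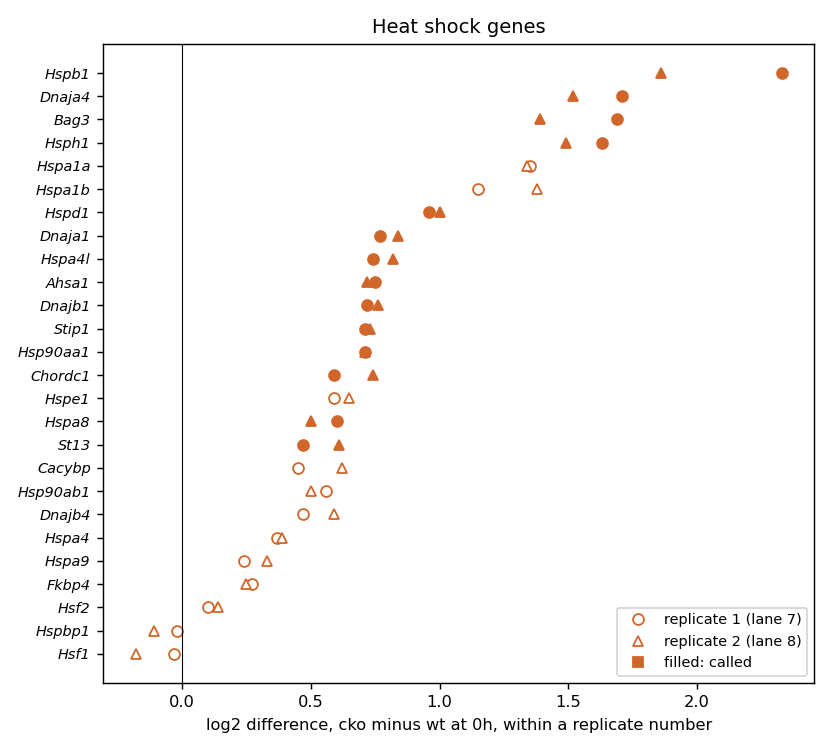
Log2 difference of cko minus wt at 0h (horizontal axis) for the 26 heat shock genes, as the difference of replicate 1 libraries in lane 7 (circles) and of replicate 2 libraries in lane 8 (triangles), filled for genes called. In 24 genes both points lie right of 0, and Hsf1 and Hspbp1 lie left of it.

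Promoters of heat shock genes were searched for the heat shock element, the site of HSF1. It was written as 3 alternating units, GAA then TTC then GAA or TTC then GAA then TTC, with any 2 bases between units, and searched on both strands with overlapping matches kept. Promoters were the RefSeq windows on GRCm38.p6, from 250 bases before to 50 after a start. Of 11 called heat shock genes with a promoter in that set 3 held a match, Hsph1, Hspd1 and Chordc1. Of 9 tested but not called 1 held it, Hspe1, whose window overlaps that of Hspd1 on the other strand, so that both hold the same site. It was present in 198 of all 32851 promoters (0.603%), in 53 of 9422 tested genes with a promoter (0.563%), in 0 of 76 genes called higher outside the list and in 1 of 48 called lower (2.08%). The stretches that hold the matches are shown so that the repeats can be compared, 5′ to 3′ on the gene's strand, with the matched bases in capitals.
Hsph1, chr5:149636287-149636316, minus strand: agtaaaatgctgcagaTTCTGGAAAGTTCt
Hspd1, chr1:55088053-55088082, minus strand: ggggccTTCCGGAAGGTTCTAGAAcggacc
Chordc1, chr9:18292260-18292289, plus strand: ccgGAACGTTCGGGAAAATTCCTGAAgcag
Hsph1 has 1 match, ending 49 bases after the start, Hspd1 2 overlapping matches that begin 144 bases before it, and Chordc1 3 overlapping matches across it. Each start is that of a RefSeq window. In GENCODE M21 the 3 stretches lie inside the genes, downstream of the outermost start, and the window at the outermost start of Hspd1 held no match.

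A loose kB site, GGG and CC with any 5 bases between them on either strand, was in 61 of 87 promoters of genes called higher (70.1%), in 35 of 48 of those called lower (72.9%) and in 6765 of 9422 of all tested (71.8%). A match describes these letters only and shows no binding.

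Immediate early genes, which cells transcribe within minutes of a signal or of handling, were mostly below wt in cko. Of 34 tested, 0 were called higher and 2 lower, against 0.918% and 0.578% of all genes. The median was -0.36, and both cko libraries lay below both wt libraries in 30, against 32.2% of all genes. Jun, an AP-1 subunit, stood at 702 and 683 CPM in wt and 332 and 339 CPM in cko, a fall of 1.04 ± 0.18 on the log2 scale (adjusted p = 0.0144, and 0.116 to 0.170 with 1 library left out). Dusp1, a phosphatase of MAP kinases, stood at 446 and 470 CPM against 275 and 276 CPM, and fell by 0.73 ± 0.12 (adjusted p = 0.00736, and 0.0678 to 0.116 with 1 library left out). Both genes were lower in both cko libraries.

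Other genes of the list had values in either direction. Junb read 1320 and 1345 CPM in wt and 737 and 738 CPM in cko (-0.85 ± 0.49, adjusted p = 0.511), and Egr1 489 and 499 CPM against 284 and 287 CPM (-0.79 ± 0.24, adjusted p = 0.144). Nr4a3, a nuclear receptor gene, read 126 and 115 CPM against 181 and 205 CPM (0.68 ± 0.24, adjusted p = 0.227), with the cko libraries above. Fosb, at 3770 and 3834 CPM in wt, differed by -0.15 ± 0.28. The list summed to 27265 and 27565 CPM in wt and 21512 and 21761 CPM in cko. Without the dbko libraries 15 members were called lower and 2 higher, against 5.18% and 5.68% of all genes.

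Transcripts of other blood cells differed between the genotypes, and in bulk RNA fewer cells of a type and less RNA per cell cannot be told apart. Of 18 tested macrophage and monocyte markers 6 were called lower and 0 higher, against 0.578% and 0.918% of all genes, with a median of -2.57. Their summed level was 271 and 276 CPM in wt and 71.3 and 63.2 CPM in cko. Csf1r, the receptor for the macrophage growth factor, stood at 32.5 and 36.8 CPM in wt and 2.01 and 2.49 CPM in cko (-3.94 ± 0.75, adjusted p = 0.0329, and 0.183 to 0.280 with 1 library left out). The complement genes C1qb and C1qc fell by 4.04 ± 0.82 and 4.02 ± 0.79 (adjusted p = 0.0388 and 0.0310). They were at 17.7 and 16.6 CPM and at 14.1 and 12.9 CPM in wt, and at most 1.38 CPM in cko. With 1 library left out the adjusted p was 0.183 to 0.351 for C1qb and 0.160 to 0.342 for C1qc.

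Calls that held among these markers were Hmox1 and Adgre1. Hmox1, which encodes heme oxygenase 1, stood at 49.8 and 52.6 CPM in wt and 12.1 and 9.15 CPM in cko (-2.27 ± 0.24, adjusted p = 0.000494). It is also the 1 called gene among 16 NRF2 and oxidative stress genes, where 1.50% of all genes were called. At 6h Hmox1 read 62.3 and 50.1 CPM in wt and 71 and 85 CPM in cko. Csf1r at 6h read 2.2 and 1.19 CPM in wt and 0.703 and 0.817 CPM in cko. Adgre1, encoding the macrophage antigen F4/80, stood at 25.8 and 26.4 CPM against 10.9 and 12.3 CPM (-1.17 ± 0.15, adjusted p = 0.00149). Among those not called, Lyz2 was at 6.04 and 6.97 CPM against 4.44 and 3.78 CPM (-0.66 ± 0.62) and Cd68 at 12.2 and 15.2 CPM against 12 and 9.44 CPM (-0.36 ± 0.34). In each, both cko libraries lay below both wt libraries, as in 32.2% of all genes. Without the dbko libraries 11 of the 18 were called lower, against 5.18% of all genes.

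Red cell genes went the other way. Of 15 tested, 5 were called higher and 0 lower, against 0.918% and 0.578% of all genes, with a median of 2.36. Both cko libraries lay above both wt libraries in all 15, against 26.6% of all genes. The summed level was 216 and 229 CPM in wt and 400 and 414 CPM in cko, of which Tfrc, the transferrin receptor gene that B cells express too, made up 187 and 194 CPM and 283 and 288 CPM. Slc4a1, the anion exchanger of the red cell membrane, stood at 1.98 and 3.19 CPM in wt and 17.1 and 16.2 CPM in cko (2.67 ± 0.52, adjusted p = 0.0336). Epb42, Ermap and Tfrc were also called, and none of the 5 calls held. Without the dbko libraries 14 of the 15 were called higher, against 5.68% of all genes.

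Marker lists of T cells, natural killer cells, dendritic cells, platelets and neutrophils each summed to less than 100 CPM in each of the 4 libraries. T cell markers summed to 75.6 and 71.1 CPM in wt and 86.8 and 80.3 CPM in cko, with Cd3e at no read in any of the 4 libraries and most of the sum in Lck. Natural killer and innate lymphoid markers summed to 17.8 and 21.6 CPM and to 32 and 33.9 CPM, and dendritic cell markers to 92 and 86.9 CPM and to 83.4 and 76.9 CPM. Megakaryocyte and platelet genes summed to 45.2 and 42.5 CPM in wt and to 84 and 75.3 CPM in cko, so that their sum, like that of the natural killer list, was higher in both cko libraries, with 0 of 6 and 0 of 5 members called. The 6 tested megakaryocyte and platelet genes had a median difference of 0.27, with a range from -2.72 to 3.89. The platelet markers Pf4, Ppbp and Itga2b were not among those higher in both cko libraries. Neutrophil markers stayed at or below 2.08 CPM in sum in each library, with Elane, Ngp, Ltf, Lcn2 and Mmp8 at no read. Among these lists 1 gene was called, the transcription factor Zbtb46, of the dendritic cell list, at 2.50 and 2.42 CPM in wt and 8.36 and 6.76 CPM in cko (1.61 ± 0.30, adjusted p = 0.0189, and 0.0896 to 0.204 with 1 library left out). The stromal and endothelial list gave 1 call of 4, Stab2, a scavenger receptor of sinus endothelium, lower at 0.212 and 0.497 CPM against 3.33 and 3.49 CPM in wt. What part the marker levels of macrophages and red cells have in the other differences was not tested.

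**Figure D4:**
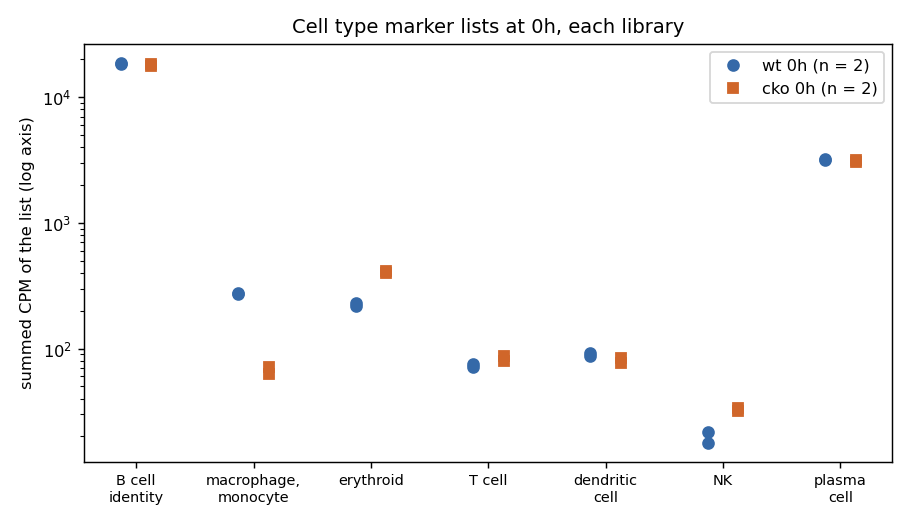
Summed CPM (vertical log axis) of 7 cell type marker lists at 0h, with 1 point for each of the 2 wt and 2 cko libraries. The B cell sums of 18437 and 18700 CPM in wt and 18202 and 17795 CPM in cko lie close together, macrophage and monocyte markers are lower in cko, and red cell genes are higher.

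Markers of B cells and of follicular B cells were abundant in both genotypes, and those of marginal zone B cells were present too. Of 22 B cell identity genes 0 were called, with a median of -0.04. Ms4a1, encoding CD20, read 1755 and 1751 CPM in wt and 1560 and 1767 CPM in cko, so the genotypes overlapped. Among 11 follicular markers 0 were called, with Fcer2a, encoding CD23, at 1192 and 1251 CPM and 1131 and 1097 CPM. Among 13 marginal zone markers, which summed to 3093 and 2976 CPM in wt and 3149 and 3328 CPM in cko, 0 were called. Cr2, encoding CD21, read 745 and 752 CPM in wt and 921 and 999 CPM in cko (0.36 ± 0.42, adjusted p = 0.798). Without the dbko libraries it was called higher (adjusted p = 0.0297), as were 5.68% of all genes.

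Among genes of germinal centre and switched B cells, 2 of low level were called lower, as were 0.578% of all genes. Of 10 germinal centre markers, which summed to 1060 and 1082 CPM in wt and 935 and 1019 CPM in cko, 1 was called lower, Nuggc, a nuclear GTPase gene, at 5.73 and 8.33 CPM in wt and 1.90 and 1.39 CPM in cko (-2.09 ± 0.41, adjusted p = 0.0252, and 0.106 to 0.327 with 1 library left out). In 9 of the 10 both cko libraries lay below both wt libraries, against 32.2% of all genes, among them S1pr2, a receptor that confines cells to the germinal centre, at 12 and 12 CPM against 6.56 and 7.95 CPM (-0.72 ± 0.21, adjusted p = 0.137). Ighg1, the IgG1 constant gene, stood at 7.61 and 7.55 CPM in wt and at 0.317 and 0.199 CPM in cko (adjusted p = 0.00309, and 0.0255 to 0.0976 with 1 library left out). Jchain, which joins secreted antibody units, read 39.1 and 40.8 CPM against 11.4 and 12.3 CPM and was not called (adjusted p = 0.436). Without the dbko libraries its difference was -1.73 ± 0.16 (adjusted p = 1.18e-05), in a fit that called 5.18% of all genes lower. The wt libraries were above the cko libraries in each of these genes.

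Division genes showed a lower level without a call. Of 24 G2 and mitosis genes 0 were called, the median was -0.70, and both cko libraries lay below both wt libraries in 23, against 32.2% of all genes. The list summed to 513 and 493 CPM in wt and 324 and 330 CPM in cko. Kif11, a spindle motor gene, read 28.1 and 29.1 CPM against 14.5 and 15.5 CPM (-0.93 ± 0.79, adjusted p = 0.691), and Mki67, the proliferation marker Ki-67, 74.5 and 64.5 CPM against 49.1 and 49.8 CPM. Without the dbko libraries 19 of the 24 were called lower, against 5.18% of all genes. For Kif11 the adjusted p was then 0.000255. Of 28 S phase genes 0 were called, with a median of -0.19.

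Several other programmes of B cells had 0 calls: 36 interferon-stimulated genes (median 0.08), 30 genes of B cell receptor signalling (-0.02), 30 of ribosome biogenesis (0.09), 25 of glycolysis and hypoxia (-0.07), 30 of oxidative phosphorylation (-0.07), 26 of the unfolded protein and ATF4 responses (0.07) and 25 of migration and adhesion (-0.06). Cholesterol synthesis genes, 24 tested, also had 0 calls, with a median of -0.29. Among all genes 1.50% were called. These lists did have calls in the fit without the dbko libraries, higher and lower: 3 and 2 for interferon-stimulated genes, 1 and 0 for B cell receptor signalling, 7 and 0 for ribosome biogenesis, 1 and 1 for glycolysis and hypoxia, 0 and 1 for oxidative phosphorylation, 6 and 1 for unfolded protein and ATF4 genes, 2 and 6 for migration and adhesion and 0 and 9 for cholesterol synthesis. All genes gave 5.68% and 5.18% there. Across all genes 1682 had an unadjusted p under 0.05. Of 20 antigen presentation genes 1 was called lower, against 0.578% of all genes. It was Psmb9, a subunit of the immunoproteasome, at 122 and 122 CPM in wt and 87.5 and 76.9 CPM in cko (-0.57 ± 0.10, adjusted p = 0.0183, and 0.0682 to 0.275 with 1 library left out). Cytokine receptor and STAT genes gave 1 call of 29, against 1.50% of all genes. It was Ifngr1, higher by 0.45 ± 0.10 (adjusted p = 0.0493, and 0.243 to 0.425 with 1 library left out).

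Some called genes lay close together in the genome. Whether the genotypes carry the same strain sequence in these windows was not tested, and there a difference of strain background and one of c-Rel cannot be told apart. Of 274 windows of 10 Mb with a tested gene 154 held no called gene and 5 held at least 4. The window of chromosome 1 from 170 to 180 Mb held 9 called of 89 tested, 10.1%, and that of chromosome 4 from 130 to 140 Mb held 11 of 126, 8.73%. Near Rel 1 of 35 genes within 5 Mb was called, against 1.50% of all genes. It was Ahsa2, a homologue of an HSP90 activator, at 36.8 and 36.9 CPM in wt and 74.6 and 76.7 CPM in cko (1.04 ± 0.13, adjusted p = 0.00149), and the call held.

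On chromosome 1, genes of the Ifi200 cluster, which encode interferon-inducible DNA sensors and nuclear proteins, changed in opposite directions. Ifi213 stood at 42.3 and 44.3 CPM in wt and 1.69 and 2.78 CPM in cko (-4.26 ± 0.31, adjusted p = 1.36e-05), and it held. Ifi206 stood at 48.9 and 47.6 CPM against 13 and 11.7 CPM (-1.96 ± 0.22, adjusted p = 0.000439), which held too, and Ifi209 at 289 and 304 CPM against 134 and 141 CPM (-1.10 ± 0.16, adjusted p = 0.00295, and 0.0360 to 0.0650 with 1 library left out). Ifi204, chosen here after its values were seen, was near 0 in wt, at 0.417 and 0.194 CPM, and stood at 40 and 34.3 CPM in cko (adjusted p = 4.96e-06). Ifi211, chosen in the same way, stood at 0.208 and 0.387 CPM against 12.6 and 12.5 CPM. These genes are near copies of each other, so the division of reads between them is uncertain.

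Other called genes of that window are surface and signalling genes. Pea15a, an adaptor of ERK and death receptor signalling, stood at 38 and 41.7 CPM in wt and 109 and 107 CPM in cko (1.44 ± 0.12, adjusted p = 3.55e-05), and it held. Slamf6 and Cd48, receptors of the SLAM family, moved apart. Slamf6 was at 108 and 125 CPM in wt and 247 and 258 CPM in cko (1.12 ± 0.20, adjusted p = 0.0175, and 0.112 to 0.227 with 1 library left out). Cd48 was at 130 and 137 CPM against 88.2 and 95.3 CPM (-0.54 ± 0.12, adjusted p = 0.0394, and 0.212 to 0.347 with 1 library left out).

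On chromosome 4, Sfn, encoding the 14-3-3 protein sigma, stood at 44.1 and 43.7 CPM in wt and 7.72 and 5.17 CPM in cko (-2.77 ± 0.24, adjusted p = 5.47e-05), and it held. Sh3bgrl3 stood at 510 and 531 CPM against 236 and 240 CPM (-1.13 ± 0.12, adjusted p = 0.000381), and it held too. Hmgn2, a nucleosome-binding protein gene with near copies elsewhere, read 23.8 and 23.2 CPM against 5.61 and 4.67 CPM (-2.19 ± 0.38, adjusted p = 0.0149, and 0.112 to 0.211 with 1 library left out). In the window next to it, from 120 to 130 Mb, the histone deacetylase gene Hdac1 was at 48.1 and 48.5 CPM in wt and 22.9 and 23.6 CPM in cko (-1.06 ± 0.11, adjusted p = 0.000410), and it held. C1qb and C1qc also lie in the first of these windows.

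Among the genes that rose most outside these groups were Tagap1, Pmepa1, Il1r2 and Casp4. Tagap1 stood at 14.1 and 14.9 CPM in wt and 38.7 and 42.4 CPM in cko (1.48 ± 0.14, adjusted p = 0.000156), and it held. Pmepa1, an inhibitor of TGF-beta signalling, rose by 1.44 ± 0.30 (adjusted p = 0.0340, and 0.153 to 0.370 with 1 library left out). Il1r2, the decoy receptor of interleukin 1, rose by 1.38 ± 0.22 (adjusted p = 0.00826, and 0.0516 to 0.167) and Casp4, the inflammatory caspase 11 of mice, by 1.27 ± 0.24 (adjusted p = 0.0229, and 0.151 to 0.227). Kcnk5, a potassium channel gene, stood at 71.8 and 70.1 CPM against 138 and 129 CPM (0.91 ± 0.11, adjusted p = 0.000874), which held. Ero1lb, an oxidase of the endoplasmic reticulum, was lower, at 226 and 225 CPM against 112 and 116 CPM (-0.98 ± 0.13, adjusted p = 0.00175), which held. Its window, chromosome 13 from 10 to 20 Mb, held 3 called of 28 tested, 10.7%. There too a difference of strain background and one of c-Rel cannot be told apart.

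An identifier without a match in GENCODE M21 was among the more abundant genes that fell. ENSMUSG00000093470, chosen after its values were seen, stood at 716 and 677 CPM in wt and 102 and 104 CPM in cko (-2.75 ± 0.23, adjusted p = 5.16e-05).

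Whether the 0h differences were the same after 6h with BAFF was tested as the cko minus wt difference at 6h less that at 0h. That test shares the 0h libraries with the 0h comparison, so for genes chosen by their 0h difference a change toward 0 is favoured. Each gene's own values are given side by side. It called 215 of all genes tested, 1.70%, with 70 positive (0.554%) and 145 negative (1.15%). Without the dbko libraries it called 764 positive and 868 negative, and without wt 0h replicate 1 it called 1 and 8, the fewest of any fit with 1 library left out.

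Of the 26 heat shock genes 10 had a negative call and 0 a positive one. Hsph1 was 1.56 above wt at 0h and differed by -0.79 at 6h, a change of -2.35 (adjusted p = 0.000572). For Hspd1 the differences were 0.98 and -0.32, a change of -1.31 (adjusted p = 0.00635). The list's median was 0.69 at 0h and -0.16 at 6h. Nfkbie went from 0.70 to -0.45 (adjusted p of the change 0.0152) and Tagap1 from 1.48 to -0.42 (adjusted p 0.00144).

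Genes that were lower at 0h included some near wt at 6h. Jun went from -1.04 to 0.18, a change of 1.22 (adjusted p = 0.0434), and Hmox1 from -2.27 to 0.47, a change of 2.75 (adjusted p = 0.00283). Il4i1, the called NF-kB target, went further from wt, from -0.80 to -1.99, a change of -1.19 (adjusted p = 0.0325). Bcl2l1 was at -0.30 at 0h and -3.41 at 6h. For Rel, Ifi213, Hdac1 and Sfn the change was not called, with adjusted p = 0.0570, 0.544, 0.695 and 0.520.

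**Figure D5:**
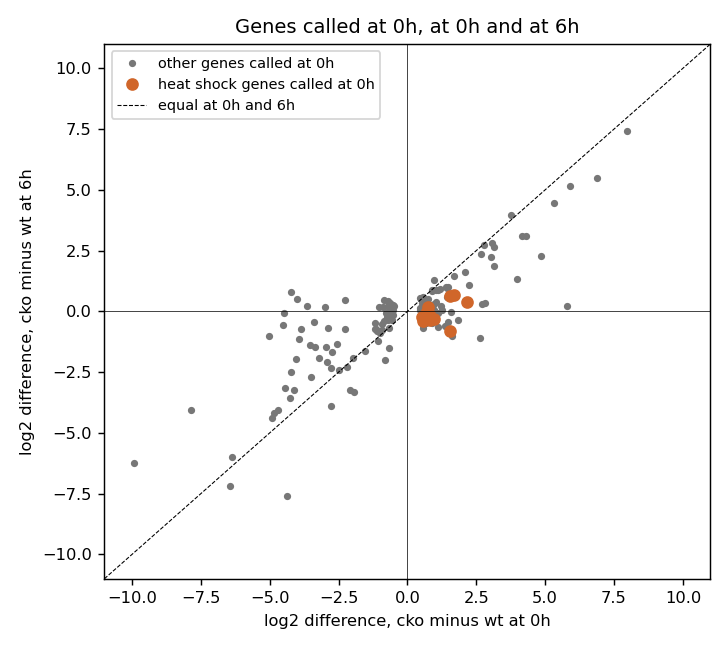
Log2 difference of cko minus wt at 0h (horizontal axis) and at 6h (vertical axis) for the genes called at 0h, with heat shock genes in orange and others in grey, and the dashed line where both are equal. The 14 heat shock genes lie right of 0 at 0h and between -0.79 and 0.69 at 6h.

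Cells that lack RelB as well were compared with cko directly at 0h. This comparison called 1140 genes, 9.03%, with 838 higher in dbko (6.63%) and 302 lower (2.39%). The replicates of dbko differed the most of all groups, and the comparison shares the cko libraries with the one against wt. Without dbko 0h replicate 2 it called 1805 genes higher and 1210 lower, and without dbko 0h replicate 1 242 and 120. Without cko replicate 1 it called 169 and 85, and without cko replicate 2 153 and 74.

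In 16 of the 26 heat shock genes dbko was called lower than cko, and in 0 higher. Hsph1 was lower in dbko than in cko, at -1.65 (adjusted p = 0.000101), and its value for dbko against wt was -0.09. Hspd1 differed from cko by -0.97 (adjusted p = 0.000732) and from wt by 0.01. The median over the list was -0.08 for dbko against wt, beside 0.69 for cko against wt, and these values share the wt libraries. Markers of other cells differed here as well: 12 of 18 macrophage markers and 15 of 15 red cell genes were called higher in dbko than in cko. For dbko against wt the median was 0.11 for macrophage markers and 6.05 for red cell genes. Macrophage markers summed to 353 and 208 CPM in dbko, beside 271 and 276 CPM in wt. Red cell genes summed to 2530 and 1409 CPM in dbko, beside 216 and 229 CPM in wt.

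Other genes differed between dbko and cko to varying degrees. The Bim gene Bcl2l11 differed between dbko and cko by 0.11 ± 0.19 (adjusted p = 0.774), with 1.02 for cko and 1.13 for dbko against wt. Hdac1 differed by -0.06 (adjusted p = 0.806) and Sfn by -0.57 (adjusted p = 0.223). Within the Ifi200 cluster Ifi204 differed by -0.23 (adjusted p = 0.635), whereas Ifi213 and Ifi206 were lower still in dbko, at -1.85 (adjusted p = 0.0208) and -1.26 (adjusted p = 0.00579). Relb, the second gene targeted in dbko, was lower there than in cko, at -1.61 (adjusted p = 5.82e-05), and Nfkb2 differed by -0.88 (adjusted p = 0.00477). Kcnk5 was lower in dbko than in cko, at -1.20 (adjusted p = 6.9e-05), and its value for dbko against wt was -0.29.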

How the data were processed

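Each library came as a deposited table of counts, whole numbers of reads per Ensembl gene ID with no normalization by the authors. Per the labels, RNA was purified on RNeasy columns, reverse transcribed from poly-dT and made into TruSeq libraries. CASAVA 1.8.2 was used, per the submitters' processing notes, and aligner, counter, build, annotation and strand setting were not given in the sources used here. Tallies of reads outside genes stayed out of the analysis, 47.75 to 49.85% of reads with more than 1 place and 5.57 to 6.63% in no feature in the 4 libraries. Of 39179 IDs 37693 matched GENCODE M21 (GRCm38), with 99.56% of the counts.

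A quasi-likelihood model with 1 mean per group (edgeR 4.0.16, R 4.3.3, TMM, filterByExpr, glmQLFit robust, glmQLFTest, two-sided) was fitted to all 14 libraries in 7 groups, which left 7 residual degrees of freedom. The common coefficient of variation between replicates was 0.144. Benjamini-Hochberg adjustment ran over 12630 genes. Tables were made with pandas 2.3.3 under Python 3.11.15 and plots with Matplotlib 3.10.9. Alternatives were DESeq2 1.42.0, DESeq2 size factors or upper-quartile scaling in edgeR, no filter on low counts, the replicate number as a block, the compared groups alone, each library left out and, added after seeing the data, fits without the dbko or the dbko and cko 6h libraries.

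The comparison and the 44 gene lists were chosen with earlier results of these data known. Named genes are the 5 subunits, 15 called genes per direction by size of change at a mean log2 CPM of at least 3 and with a proper symbol, the next 10 by adjusted p, up to 5 called members per list and the cell type markers. Further list members are given as examples with their values. Results of 4 genes that this rule or a list covers are left out of the text.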

Additional observations from a re-analysis of the deposited data

Results flagged for a closer look

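Of 61 called genes that the naming rule gave, 20 had a cko minus wt difference at 6h that differed from that at 0h, by the test of the difference itself. Over all genes tested the share was 1.70%. The 61 were chosen by their 0h difference, which the test subtracts, so changes toward 0 were favoured in advance. Of the 20, 16 were higher in cko at 0h and 4 lower. The change from 0h to 6h was negative for the heat shock genes Hsph1 (-2.35), Hspd1 (-1.31), Dnaja1 (-1.18) and Hspa4l (-0.88) and for the HSP90 activator homologue Ahsa2 (-1.13). It was negative for the NF-kB genes Nfkbie (-1.15), Traf6 (-0.66) and Il4i1 (-1.19), of which Il4i1 was lower at both times. Further negative changes were those of Zbtb46 (-2.63), Il1r2 (-1.98), Tagap1 (-1.90), Slc5a3 (-1.78), the transferrin receptor gene Tfrc (-1.29), Chst10 (-0.96), Atl2 (-0.89), Itprid2 (-0.89) and Ubxn4 (-0.85). Positive changes were those of Hmox1 (2.75), Jun (1.22) and Cd48 (0.82), all lower in cko at 0h. Groups of 2 libraries are too small to test for a library that stands apart.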

How the results depend on the processing

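No call among the 61 named called genes reversed under any alternative. All 61 stayed called with DESeq2, no filter, the replicate block, the compared groups alone and without the dbko libraries, 60 with DESeq2 size factors and without the dbko and cko 6h libraries, and 57 with upper-quartile scaling. Between 19 and 23 stayed called with 1 library left out. For the comparison at 0h the 116 higher and 73 lower calls became 392 and 256 with no filter, 1425 and 1235 with the groups alone, 1390 and 1251 without the dbko and cko 6h libraries, 691 and 630 without the dbko libraries, and 16 to 30 and 18 to 25 with 1 library left out, which leaves an arm with 1 library assumed to vary like the others. DESeq2 gave 282 higher and 105 lower. DESeq2 size factors gave 160 and 74, and upper-quartile scaling 102 and 74.

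The change of the difference from 0h to 6h, 70 positive and 145 negative calls, became 182 and 472 with no filter, 143 and 349 with DESeq2, 580 and 712 with the groups alone, 764 and 868 without the dbko libraries, and 1 to 161 and 8 to 248 with 1 library left out. dbko against cko at 0h, 838 higher and 302 lower, became 1375 and 749 with no filter, 482 lower with DESeq2 and 430 and 115 with the groups alone, and ranged over 153 to 1805 higher and 74 to 1210 lower with 1 library left out. The cause of these shifts was not tested.

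The labels tie a replicate number to a lane and to nothing else. Deviations from group means correlated over 0.1 in 5 of 21 pairs of groups, at most 0.482 between dbko at 0h and 6h, and at -0.0199 between the groups compared, so the numbers were not taken to pair libraries. With the replicate block the 0h comparison gave 151 higher and 94 lower, the change from 0h to 6h 61 and 148, and dbko against cko 989 and 380. Depth limits genes under about 1 CPM, which rest on about 10 reads per library.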
